A study of Mus musculus with 1536 samples.

Results

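The genes described here are 10 cytokine and cytokine receptor genes of nasopharyngeal lymphatic endothelial cells (LECs): the secreted factors Il33, Il7 and Csf1, and the receptor chains Il6st, Il4ra, Il1r1, Il20rb, Ifngr1, Ifnar1 and Ifnar2. They were taken by symbol from the adult expression matrix, where all 10 were found among 23168 gene rows. The cells came from the nasopharyngeal mucosa of adult C57BL/6 mice of both sexes, 10 to 12 weeks old, with tissue from 30 mice pooled, sorted as CD31+ PDPN+ cells into 96-well plates and sequenced by Smart-seq3, a full-length plate method. The mice carried no transgene or treatment that the labels name. The labels tie no cell to a mouse or plate, so the cells were treated as 1 sample, no test was made, and the intervals below are exact (Clopper-Pearson) 95% binomial intervals over cells that cover counting error only. For a gene found in 0 cells, the limit given is 3 cells of the total. Reads were not collapsed into molecules in the counts used.

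IL-33 is a cytokine of the IL-1 family that is kept in the nucleus and acts as an alarm signal when a cell is damaged. IL-7 sustains T cells and innate lymphoid cells, and lymphatic endothelium is a known source of it, while CSF1 is a growth factor of macrophages. The receptor genes encode chains that work in pairs: a chain that binds or shares a cytokine joins a partner. For the receptor members other than Il1r1, Janus kinases and STAT proteins carry the signal onwards.

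Cells held 7433 to 3524358 reads (median 350746) and 2001 to 7236 detected genes (median 4186.5). The label of the cells was checked first. Prox1, the transcription factor that sets lymphatic identity, had reads in 97.7% of cells, Flt4 (the VEGF-C receptor) in 99.8% and Pdpn in 95.2%. Ptprc, the pan-leukocyte gene, was at 0 in all cells, which allows a share of up to 0.356%, and Epcam and Pdgfra had reads in 4 cells each. PDPN was a sort marker and EpCAM was in the stain, so Pdpn and Epcam are no separate check of the label. Other markers were found more often: Cd68, an immune marker, in 15.7% of cells and Dcn, a fibroblast marker, in 12.4%. Of the markers of blood vessel endothelium, Flt1 (2.49% of cells) and Ly6c1 (0.594%) were rare, whereas Plvap (77.8%) and Emcn (94.2%) were found in most cells.

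Among the secreted factors, Il7 was found in most cells, and Il33 and Csf1 in a minority. Il7 had reads in 68.1% of cells (interval 64.8 to 71.2%), Csf1 in 18.6% (16.1 to 21.4%) and Il33 in 15.6% (13.2 to 18.2%). The intervals of Csf1 and Il33 overlapped. Among the receptors, Il6st, which encodes gp130, the signal chain shared by the IL-6 family, was found in 99.3% (98.5 to 99.7%). The type I interferon receptor chains differed: Ifnar2 had reads in 82.4% of cells (79.7 to 84.9%) and Ifnar1 in 44.1% (40.7 to 47.5%). Ifngr1, the ligand-binding chain of the interferon-gamma receptor, had reads in 59.98% (56.6 to 63.3%). Il4ra, the chain shared by the IL-4 and IL-13 receptors, had reads in 47.03% (43.6 to 50.5%), and its interval overlapped that of Ifnar1. Il20rb, a chain of the receptors for IL-19, IL-20 and IL-24, had reads in 34.6% (31.3 to 37.9%). Il1r1, the signalling receptor for IL-1, was the rarest member, with reads in 60 cells (7.13%, 5.48 to 9.08%). Over all genes of the matrix, 2919 of 23168 (12.6%) had reads in at least 50% of the cells and the median gene was found in 4.99% of them, and 4 of the 10 members passed 50%. Of the 10 members a cell held a median of 5, and 1 cell held none.

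**Figure D1:**
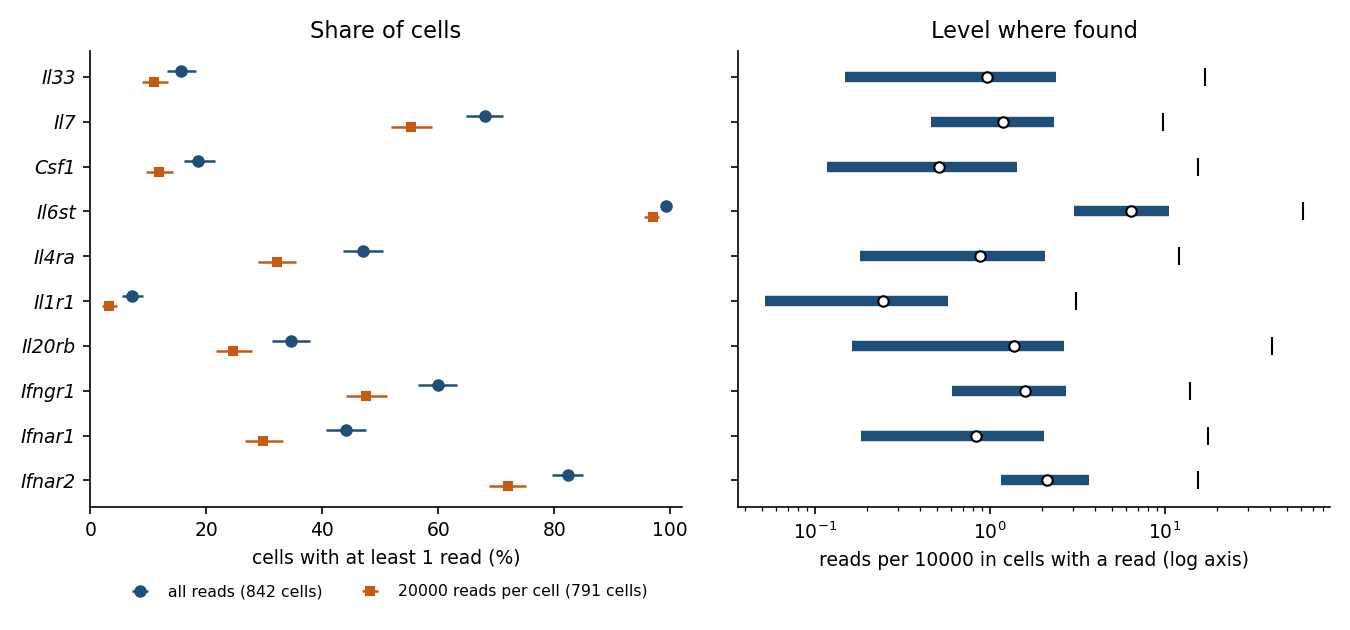
Left, share of cells with at least 1 read (%) of each member, with 95% binomial intervals, for all reads and for cells thinned to 20000 reads; right, level in the cells with a read, as reads per 10000 on a log axis, with the bar from the first to the third quartile, the circle at the median and the tick at the highest cell. Il6st is in nearly all cells at a median of 6.41, and Il33 is in 15.6% of cells over a range up to 16.9.

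The levels followed another order than the shares. Per kilobase of annotated exon, Il6st averaged 0.710 ± 0.628 reads per 10000 (SD over all cells), Ifnar2 0.660 ± 0.663 and Ifngr1 0.419 ± 0.615. Il7 followed at 0.208 ± 0.294, Il20rb at 0.171 ± 0.514, Il4ra at 0.123 ± 0.261, Il33 at 0.102 ± 0.454 and Ifnar1 at 0.0988 ± 0.214. Csf1 (0.0348 ± 0.146) and Il1r1 (0.00488 ± 0.0303) were lowest. Each gap between neighbours in this order was smaller than the SD over cells of the higher of the pair. On this scale Il33, found in 15.6% of cells, stood level with Ifnar1, found in 44.1%.

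Il33 was concentrated in few cells. In the cells with reads, the Il33 level had a median of 0.961 reads per 10000, quartiles of 0.149 and 2.38, and a highest value of 16.9. The raw count there had a median of 20 reads and a maximum of 2422, and 2 of these cells had a single read. The 10 cells with most Il33 held 38.9% of its summed level. For Csf1 the corresponding share was 32.1% and for Il1r1 56.1%, against 6.09% for Il6st, 5.63% for Ifnar2 and 8.65% for Il7. The 3 cells with the most Il33 carried 16.9, 15.4 and 15.3 reads per 10000, and all 3 fell in one cluster, described below as Stab2-high.

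Depth moved with whether a member was found. Cells were split into 4 equal bins by total reads, with medians of 37162, 185426.5, 574867 and 1284307 reads. Il33 had reads in 9.005% of the lowest bin, 15.2% of the second, 17.6% of the third and 20.4% of the highest. Il7 went from 44.5% through 69.5% and 76.2% to 81.99%, and Ifnar1 from 27.01% through 44.8% and 46.7% to 57.8%. Csf1 did not follow this order, with 14.7%, 20.95%, 19.5% and 19.4%. When each cell was thinned to 20000 reads, which left out the 51 shallower cells, the share was 10.999% (8.90 to 13.4%) for Il33, 55.4% for Il7, 11.8% for Csf1 and 96.97% for Il6st. It was 72.1% for Ifnar2, 47.5% for Ifngr1, 32.1% for Il4ra, 29.8% for Ifnar1, 24.7% for Il20rb and 3.16% for Il1r1. The shares printed for all reads are therefore values at these depths and not shares of cells that express the gene.

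**Figure D2:**
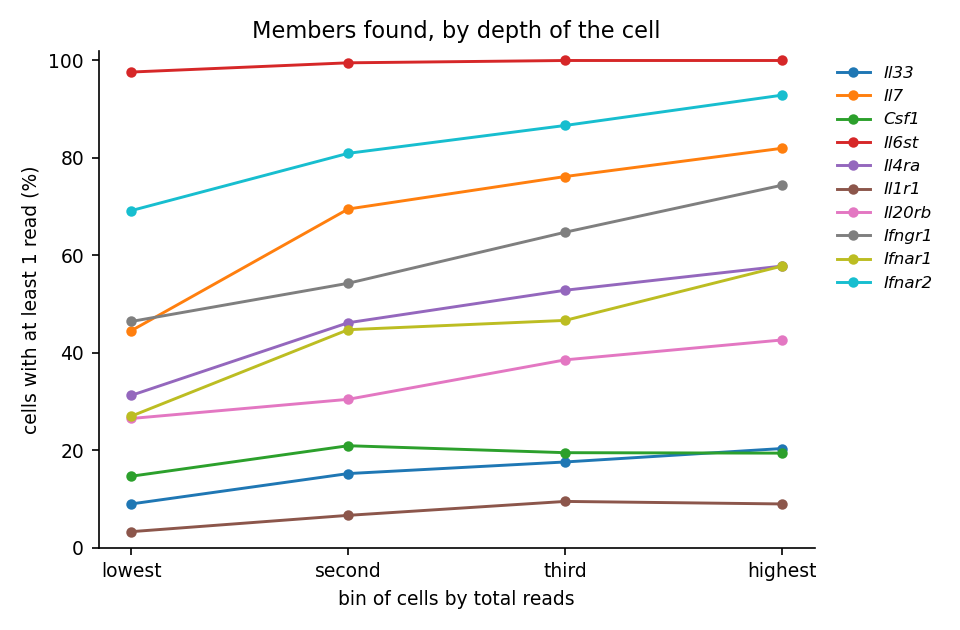
Share of cells with at least 1 read (%) of each of the 10 members in the 4 bins of cells by total reads. The lines of Il7 and Ifnar1 climb across the bins, Il33 goes from 9.005% to 20.4%, and Il6st stays between 97.6% and 100%.

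The start regions of the members are shown here because the shares of cells can be read beside them. RefSeq windows of 300 bases (250 before and 50 after an annotated start, GRCm38.p6) were matched by symbol for 9 of the 10 members, 11 windows in all. Il7 had no entry. The 5 windows below run 5′ to 3′ on the strand of the gene, with each CG pair in capitals; they are the starts of Il33, of the member with the fewest CG pairs (Il20rb), of the member with the most (Il6st) and of Ifnar1.
Il33, upstream start, chr19:29924863-29925162, plus strand: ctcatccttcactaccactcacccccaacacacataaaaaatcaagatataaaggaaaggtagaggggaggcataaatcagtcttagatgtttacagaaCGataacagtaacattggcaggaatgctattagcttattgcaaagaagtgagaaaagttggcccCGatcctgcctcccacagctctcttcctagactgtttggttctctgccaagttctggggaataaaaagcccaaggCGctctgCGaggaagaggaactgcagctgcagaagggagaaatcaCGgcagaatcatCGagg
Il33, downstream start, chr19:29945540-29945839, plus strand: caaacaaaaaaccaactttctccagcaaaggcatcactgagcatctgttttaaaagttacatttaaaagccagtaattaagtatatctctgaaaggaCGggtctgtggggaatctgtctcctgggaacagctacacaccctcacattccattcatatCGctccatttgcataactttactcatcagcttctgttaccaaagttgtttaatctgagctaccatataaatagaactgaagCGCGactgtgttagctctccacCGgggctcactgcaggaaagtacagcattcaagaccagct
Il20rb, chr9:100486424-100486723, minus strand: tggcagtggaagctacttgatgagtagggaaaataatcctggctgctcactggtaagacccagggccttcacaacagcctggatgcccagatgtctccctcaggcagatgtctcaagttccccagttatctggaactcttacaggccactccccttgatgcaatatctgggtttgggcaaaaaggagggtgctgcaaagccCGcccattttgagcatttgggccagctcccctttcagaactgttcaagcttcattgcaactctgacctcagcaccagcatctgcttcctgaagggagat
Il6st, chr13:112463820-112464119, plus strand: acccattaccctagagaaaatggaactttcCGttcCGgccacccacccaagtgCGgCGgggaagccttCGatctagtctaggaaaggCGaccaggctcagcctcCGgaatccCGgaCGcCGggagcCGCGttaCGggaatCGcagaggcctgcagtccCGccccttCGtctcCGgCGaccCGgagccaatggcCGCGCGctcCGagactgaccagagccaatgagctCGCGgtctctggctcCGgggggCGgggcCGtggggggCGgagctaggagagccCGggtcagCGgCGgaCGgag
Ifnar1, chr16:91484965-91485264, plus strand: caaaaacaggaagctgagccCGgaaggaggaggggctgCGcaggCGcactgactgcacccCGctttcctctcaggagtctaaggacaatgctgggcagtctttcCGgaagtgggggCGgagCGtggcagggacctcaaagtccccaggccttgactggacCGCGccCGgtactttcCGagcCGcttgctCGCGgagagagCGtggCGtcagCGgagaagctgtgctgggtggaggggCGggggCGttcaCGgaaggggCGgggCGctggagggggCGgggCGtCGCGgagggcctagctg

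The Il33 windows held 6 and 5 CG pairs, against a median of 7 over all 32841 windows, and Il20rb held 1. The windows of Il6st and Ifnar1 held 33 and 26. The Il1r1 windows held 5 and 14, Ifngr1 14, Csf1 16, Ifnar2 18 and Il4ra 25. Among the members, the gene found in nearly all cells had the most CG pairs, but Ifnar2 (82.4% of cells) had fewer than Il4ra (47.03%). Across the 12743 genes of the matrix with a window, the median share of cells with reads was 1.54% for genes whose richest window had 0 to 10 CG pairs, 16.7% for 11 to 20, 22.7% for 21 to 29 and 26.8% for 30 to 67. These are genes of 1 pool of cells and are not independent replicates. The letters TATAAA, on either strand, stood in both Il33 windows and in none of the other 9 windows of members, and in 13.6% of all windows. The data do not show which Il33 start the reads came from, and a match of letters is a description only.

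The members lay apart in the genome except for the interferon receptor chains. In GRCm38, Il33 is annotated at chr19:29925114-29960718, Il7 at chr3:7569994-7613760 and Csf1 at chr3:107741048-107760469. Il6st is at chr13:112464070-112510086, Il4ra at chr7:125552120-125579474, Il1r1 at chr1:40225080-40317257, Il20rb at chr9:100457719-100486788 and Ifngr1 at chr10:19591949-19610229. Ifnar2 (chr16:91372783-91405589) and Ifnar1 (chr16:91485238-91507441) are neighbours on the plus strand with Il10rb between them at chr16:91406164-91425834. Exons of Ifnar2 and of Il10rb overlap those of Gm21970 on the same strand, and exons of Il7 and Il4ra overlap Gm16685 and Gm44876 on the opposite strand, so how reads were divided there is uncertain.

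The cells were grouped into 5 clusters with the members and the other cytokine, receptor, signalling and interferon genes held out, and 4 clusters are called by the subtype gene that was highest in them. The Igfbp5-high cluster held 39.3% of the cells, Stab2-high 27.6%, Fndc1-high 5.46% (46 cells) and Cldn11-high 5.11% (43 cells), and 190 cells (22.6%) remained, led by Tgfbi and Lyve1. Median depth ran from 282372 reads in the Cldn11-high to 524183.5 in the Fndc1-high cluster. Intervals over these cells treat each cell as independent, although all came from 1 pool.

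Il33 was found in every cluster. Its share was 19.03% (14.9 to 23.7%) of Igfbp5-high, 13.4% (9.26 to 18.4%) of Stab2-high, 12.6% (8.26 to 18.2%) of the remaining, 21.7% (10.9 to 36.4%) of Fndc1-high and 6.98% (1.46 to 19.1%) of Cldn11-high cells. All of these intervals overlapped. The mean Il33 level was 0.320, 0.387, 0.213, 0.260 and 0.00206 reads per 10000 in that order. The Stab2-high mean rested on the 3 cells with the most Il33, and without them it was 0.184. The 3 Cldn11-high cells with Il33 reached at most 0.0481, and after thinning 0 of 41 Cldn11-high cells had a read, which allows a share of up to 7.32%. The low level in that cluster rests on 43 cells.

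Il4ra and Il6st differed between the larger clusters. Il4ra had reads in 52.3% (46.7 to 57.8%) of Igfbp5-high and 53.4% (46.8 to 60.002%) of Stab2-high cells, against 35.3% (28.5 to 42.5%) of the remaining, 32.6% of Fndc1-high and 39.5% of Cldn11-high cells. After thinning the shares were 37.2%, 39.2%, 20.4%, 22.5% and 17.1%, so the same clusters were high at equal depth. Il6st was in 97.7 to 100% of each cluster, with mean levels of 9.32 reads per 10000 in Igfbp5-high and 9.28 in the remaining cells, 7.03 in Fndc1-high, 5.53 in Stab2-high and 4.27 in Cldn11-high cells. Its natural log values were 2.10 ± 0.72 (SD over cells) in Igfbp5-high and 1.61 ± 0.75 (SD over cells) in Stab2-high cells, so the means lay less than 1 SD of cells apart.

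Il7 and Il20rb were highest in the remaining cells. Il7 was found in 75.3% (68.5 to 81.2%) of them and in 59.9% (53.3 to 66.3%) of Stab2-high cells, intervals that did not overlap, with 70.1% of Igfbp5-high, 65.2% of Fndc1-high and 67.4% of Cldn11-high cells between. Il20rb was found in 44.7% (37.5 to 52.1%) of the remaining and 30.2% (24.3 to 36.5%) of Stab2-high cells, with 32.6%, 23.9% and 39.5% in Igfbp5-high, Fndc1-high and Cldn11-high. Ifngr1 was found in 68.1% (61.7 to 74.1%) of Stab2-high and 67.4% (51.98 to 80.5%) of Fndc1-high cells, against 54.99% (49.5 to 60.4%) of Igfbp5-high cells, and its mean level was highest in Fndc1-high cells (1.63 reads per 10000, against 1.501 in Stab2-high). Ifnar2 (78.02 to 93.02%), Ifnar1 (36.96 to 53.5%), Csf1 (13.2 to 25.6%) and Il1r1 (5.60 to 10%) varied over the clusters with overlapping intervals. By mean level, the highest and lowest cluster differed by at least 0.5 on the log2 scale (pseudocount 0.1) for 9 of 10 members, Csf1 being just below. The same held for 72.8% of the 11573 genes with reads in at least 5% of cells, so the count says nothing particular of the members. The median of this difference was 0.84 over the members and 0.71 over all genes.

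**Figure D3:**
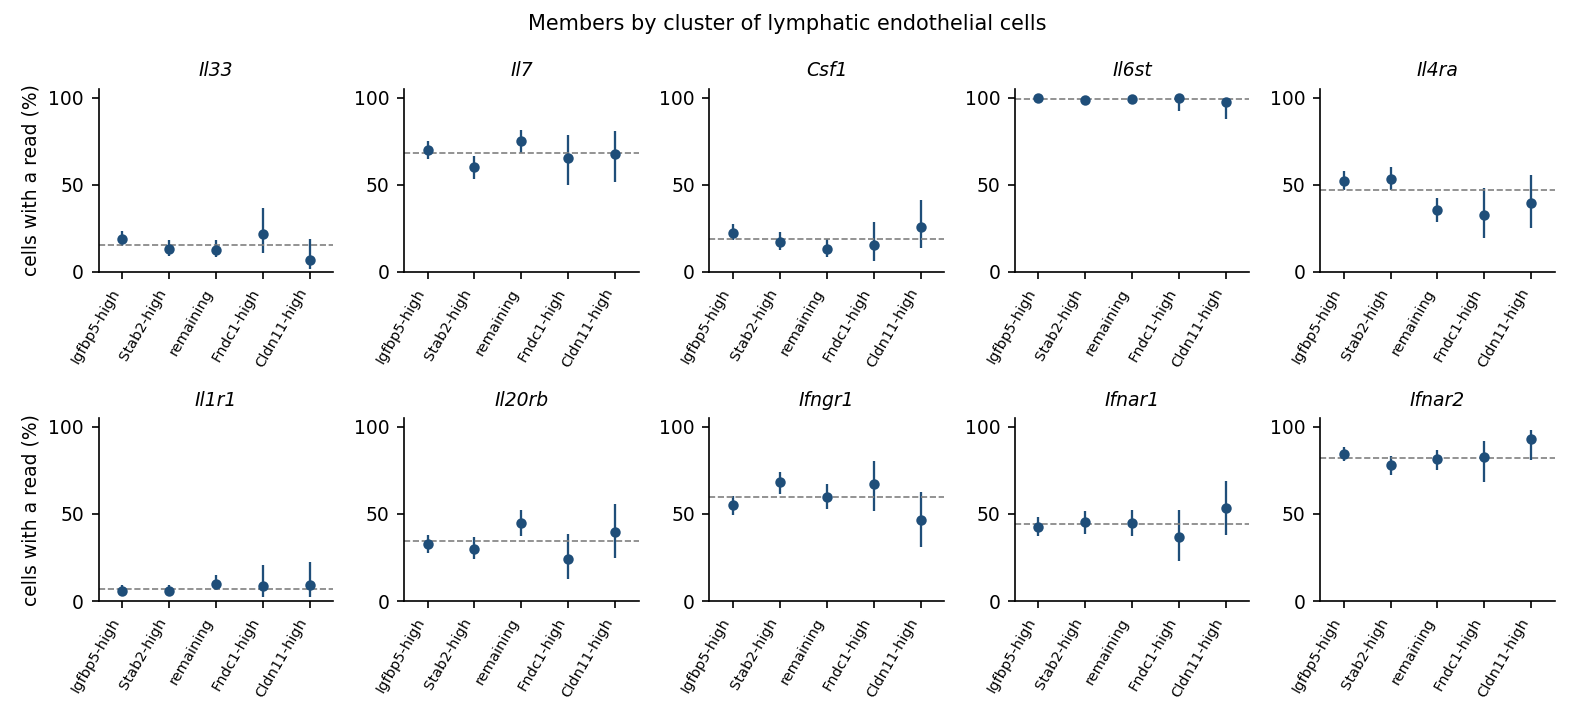
Share of cells with a read (%) of each member in the 5 clusters, with 95% binomial intervals over cells and the share over all cells as a dashed line. Il4ra sits above its line in the Igfbp5-high and Stab2-high cells, and the Il33 intervals of all clusters overlap.

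Correlations between the members from cell to cell were low. Over the 45 pairs of members, Pearson's r of natural log values across all cells ran from -0.068 to 0.15 (median 0.013), and 1 pair, Il7 with Il6st, reached 0.1. These cells differ in depth and share 1 pool, and several members had reads in few cells. Low values here therefore do not show that the members vary independently. Among the genes most like Il33, of 9654 compared, were C3 (r = 0.18), Rbm3-ps (0.17), Prkar1b (0.15) and Gnpda2 (0.15). Those most like Il7 were Cd9 (0.20), Cavin2 (0.20), Ostf1 (0.20), Itm2b (0.19) and Fgl2 (0.18), and among those most like Csf1 were Tmem176a (0.16), H2-Q6 (0.16), Plcd1 (0.15) and Tmem176b (0.15). In counts this sparse, such values are weak.

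The cells with Il33 (15.6%) were next set against those without. Cells with Il33 were deeper, with a median of 520718 reads (11828 to 2427180) and 4565 genes, against 316970 reads (7433 to 3524358) and 4119 genes. Of 7 lymphatic identity genes, 6 stayed within 0.5 on the log2 scale between these groups with all reads. Lyve1, described below, was higher with Il33, as were 2.62% of all genes compared. Prox1 was found in 97.7% of cells with and 97.75% of cells without Il33, and the summed level of the identity genes had a median of 46.8 reads per 10000 with Il33 (16.98 to 155.7) and 44.3 without (7.75 to 158.8). Of 5 immune markers, Ptprc was at 0 and the rest summed to a median of 0 in both groups (highest cell 4.54 with and 36.4 without Il33). The 5 fibroblast markers summed to a median of 0 in both groups (highest 5.98 and 132.98), as did the epithelial (8.28 and 5.99), mural (5.26 and 16.8) and Schwann cell markers (1.02 and 22.8). A minority of cells still had reads. At least 1 fibroblast marker was found in 19.1% of cells with and 14.9% of cells without Il33. For immune markers the shares were 19.1% and 17.2%, and for epithelial markers 3.82% and 1.13%. For mural markers they were 4.58% and 6.61%, and for Schwann cell markers 7.63% and 6.75%. The 5 blood endothelial markers, among them Plvap and Emcn, summed to a median of 7.55 with and 7.13 without Il33.

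Fold values are log2 ratios of mean reads per 10000, with a pseudocount of 0.1. Of 11572 genes compared, 2.62% were higher by at least 0.5 in cells with Il33 and 3.63% were lower. The median ratio over all genes was -0.012. Depth was not matched between the groups, so 2 further values are given beside many of the ratios. One has the cells without Il33 weighted to the same bins of depth. The other is after thinning to 20000 reads, where 87 cells had Il33.

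Of 22 subtype genes compared, 4 were higher by at least 0.5 in cells with Il33 and none was lower, against 2.62% and 3.63% of all genes. Igfbp5, a secreted binding protein of insulin-like growth factors that marks the largest cluster, averaged 13.2 reads per 10000 with and 7.70 without Il33, a ratio of 0.77 (0.83 weighted by depth, 0.49 after thinning). Lyve1, the hyaluronan receptor of capillary lymphatics, averaged 16.2 against 10.9, a ratio of 0.57 (0.49 and 0.62). Gata2, a transcription factor of lymphatic valves, stood at 0.53 (0.49 and 0.11), and Fndc1 at 0.52 (0.55 and 0.20). Without the 1 cell with Il33 that held most of the gene, Gata2 and Fndc1 stood at 0.38 and 0.39. The count depended on the setting: weighted by depth 3 were higher (Fndc1, Igfbp5 and Mgp) and none was lower, and after thinning 2 were higher (Lyve1 and Mgp) and 2 lower (Foxc2 and Neo1). With all reads the other subtype genes stayed within 0.5, among them Ptn (0.47), Cldn11 (0.44, but 0.02 after thinning), Clca3a1 (0.30), Reln (0.27), Stab2 (-0.07) and Ptx3 (-0.41), the pentraxin that names 1 capillary subtype. Mgp went from 0.28 to 0.54 weighted by depth and 0.85 after thinning. Foxc2 was -0.51 after thinning, and Neo1 went from 0.06 to -1.22 after thinning. Neo1 had reads in 4.58% of cells with and 6.19% without Il33, and Mgp in 12.2% and 8.44%, so their ratios rest on few cells. With all reads, none of the 6 genes of the Ptx3-positive capillary list passed 0.5 (median -0.093), and 2 of 5 of the Ptx3-negative list did (median 0.47). So did 1 of 5 precollecting genes (0.28) and 1 of 6 valve genes (0.15). After thinning, the Ptx3-positive genes ran from -0.21 (Ptx3) to 0.32 (Mrc1). The Ptx3-negative genes then ran from 0.20 (Fndc1) to 0.62 (Lyve1), with Lyve1 alone past 0.5. In cluster terms, 48.1% of cells with Il33 and 37.7% of cells without it were Igfbp5-high.

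Single cells spanned both groups for all of these genes. The Igfbp5 level ran from 0 to 135.3 reads per 10000 (median 1.07) with Il33 and from 0 to 141.02 (median 0.205) without it, and its natural log values were 1.48 ± 1.56 and 1.03 ± 1.34 (SD over the cells with and without Il33). The Igfbp5 mean was higher with Il33 in 3 of the 4 bins of depth. Within the Igfbp5-high, Stab2-high and remaining cells the ratio was 0.50, 0.31 and 1.68, and in the Fndc1-high and Cldn11-high cells, where 10 and 3 cells had Il33, it was -0.73 and -0.64. The Lyve1 ratio was 0.57, 0.56 and 0.77 within the first 3 groups, 0.49 in Fndc1-high and -1.80 in Cldn11-high cells.

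**Figure D4:**
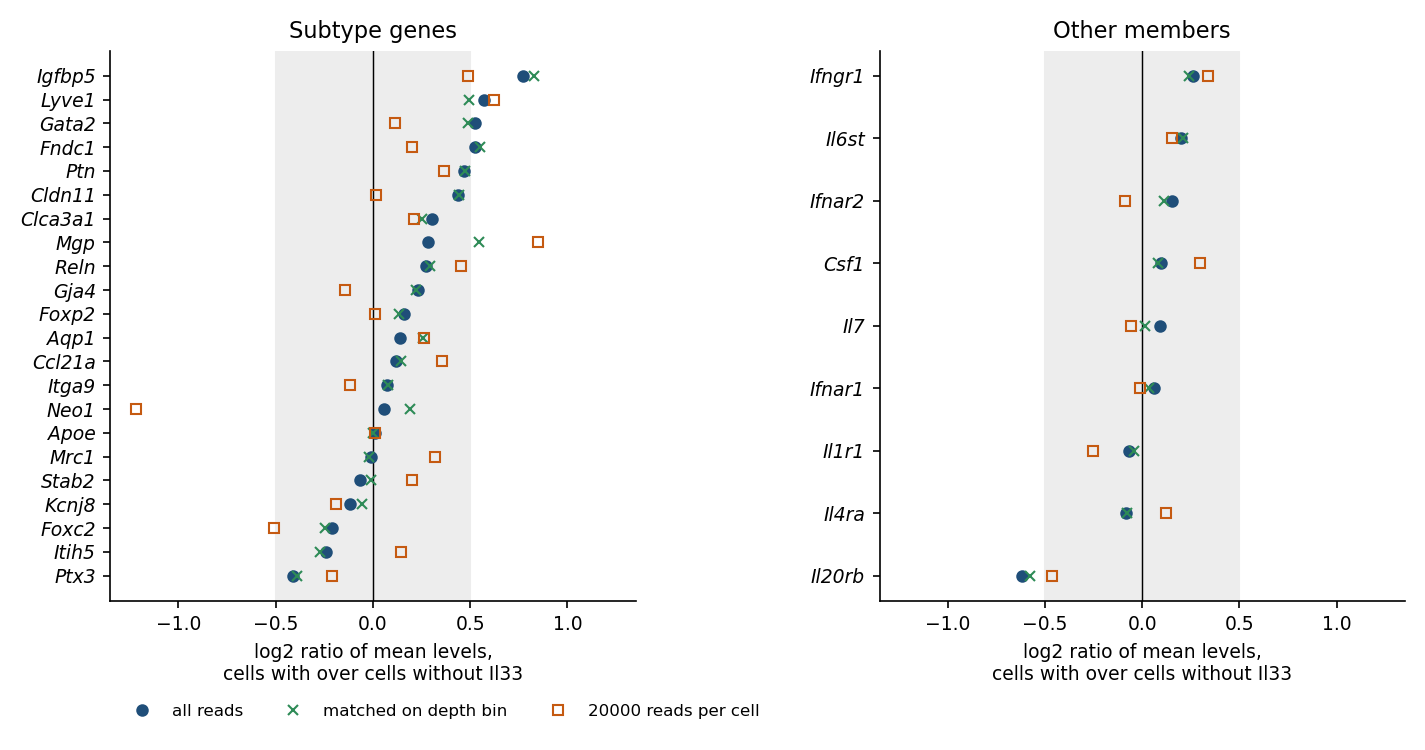
Log2 ratio of mean reads per 10000 (pseudocount 0.1) in cells with over cells without Il33, for subtype genes (left) and the other 9 members (right), from all reads, matched on depth bin, and after thinning to 20000 reads; the grey band spans -0.5 to 0.5. Igfbp5 has the highest ratio of the subtype genes from all reads (0.77), and Il20rb (-0.62) is the member outside the band.

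With all reads, Il20rb was the 1 member past the fold between cells with and without Il33. Il20rb averaged 0.465 reads per 10000 with and 0.766 without Il33, a ratio of -0.62 (-0.58 and -0.47), and was found in 29.01% against 35.6% of cells. It was lower with Il33 in 4 of 4 bins of depth. The remaining 8 members lay between -0.08 and 0.26: Ifngr1 0.26, Il6st 0.20, Ifnar2 0.15, Csf1 0.10, Il7 0.09, Ifnar1 0.06, Il1r1 -0.07 and Il4ra -0.08. Ifngr1 was found in 70.2% of cells with and 58.1% of cells without Il33 and was higher in 4 of 4 bins of depth. In the cells with Il33 above 1 on the natural log scale the Ifngr1 ratio was 0.56, past the fold. Within clusters the Ifngr1 ratio was -0.47 in Igfbp5-high, 0.48 in Stab2-high, 0.53 in Fndc1-high, 0.20 in Cldn11-high and 0.96 in the remaining cells. With all reads, therefore, 1 of 9 passed the fold, in the direction where 3.63% of all genes did, and its natural log values (0.22 ± 0.48 against 0.31 ± 0.59, SD over cells) overlapped widely.

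Outside the lists, C3 stood out in the cells with Il33. C3, the central component of complement, averaged 4.78 reads per 10000 with and 2.28 without Il33 (ratio 1.04, 1.11 weighted by depth, 1.18 after thinning) and was found in 72.5% against 58.4% of cells. The C3 ratio was past 0.5 in all 10 settings tried, and C3 was higher with Il33 in 4 of 4 bins of depth. Its correlation with Il33, given above, is the same comparison and no further evidence. Within clusters the C3 ratio was 1.07 in Igfbp5-high, 1.77 in Stab2-high and 0.40 in the remaining cells. In the Fndc1-high and Cldn11-high cells it was -0.81 and -2.97. C3 was singled out after its values were seen.

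The 10 genes with the largest positive ratios were Nppc (1.31), Steap4 (1.27), Htr2b (1.27), Rgcc (1.17), Postn (1.15), Iigp1 (1.13), Igfbp3 (1.13), Serpina3n (1.12), C3 (1.04) and Ifitm1 (1.02). Weighted by depth, these ratios ran from 0.97 (Ifitm1) to 1.37 (Igfbp3). After thinning, Steap4 fell to 0.39, within the fold, and Igfbp3 to 0.53, while the others ran from 0.81 (Ifitm1) to 1.80 (Rgcc). They include the natriuretic peptide Nppc, the serotonin receptor Htr2b, the matrix protein periostin (Postn), the interferon-induced GTPase Iigp1 and the protease inhibitor Serpina3n. Nppc was found in 12.98% of cells with and 4.36% of cells without Il33, Htr2b in 48.1% and 29.1%, Postn in 52.7% and 35.2%, and Serpina3n in 41.98% and 30.9%. Rgcc, Igfbp3 and Ifitm1 were found in shares closer to each other (7.63 and 5.77%, 9.16 and 8.02%, 7.63 and 6.05%), and their ratios rested on few cells. The Rgcc ratio rested on 1 cell with 29.6 reads per 10000, without which it was 0.08. Without the highest cell with Il33, Igfbp3 stood at 0.64, Ifitm1 at 0.54, Serpina3n at 0.59 and Nppc at 0.89. Postn and Htr2b were higher with Il33 in the Igfbp5-high cells (0.82 and 1.09) but not in the Stab2-high cells (-0.31 and -0.26).

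The largest negative ratios were those of Cpne7 (-1.43), Bpifb1 (-1.37), Mt1 (-1.27), Ttf2 (-1.20), Ppm1j (-1.10), Gdf15 (-1.09), Il6 (-1.08), Tnc (-1.06), D430042O09Rik (-1.06) and Dcaf5 (-1.05). They ran from -1.32 (Il6) to -0.98 (Mt1) weighted by depth, and from -2.16 (Gdf15) to -0.85 (Mt1) after thinning. Among them Gdf15 is a stress-induced factor of the TGF-beta superfamily, Tnc encodes the matrix protein tenascin C and Mt1 a metallothionein. Gdf15 was found in 51.1% of cells with and 47.5% without Il33, with a highest cell of 290.3 reads per 10000 among those without, and within Stab2-high cells its ratio turned to 1.59. Il6 was found in 9.16% and 9.85% of cells. Ttf2 (7.63 against 13.9%) and Ppm1j (5.34 against 10.8%) also differed in the share of cells.

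The pathway around the members was read from lists of other secreted factors, receptor partners, signalling genes and interferon-stimulated genes. Of 17 other secreted cytokines with a row, none was found in 50% of cells, 6 were found in at least 5%, and 11 in fewer. Flt3l, a dendritic cell growth factor, led with 26.1%, followed by Clcf1 (12.9%) and Il6 (9.74%), and Tslp, an alarm cytokine like IL-33, was found in 9.03%. In cells with Il33, 1 of 6 of these genes was lower by the fold (Il6) and none higher, against 3.63% and 2.62% of all genes. The list median was -0.20, against -0.012 over all genes. Il1rl1, which encodes the IL-33 receptor ST2, and Il7r had no row under these symbols in the matrix and could not be counted. The authors removed genes expressed in fewer than 3 cells, and whether that filter took out these rows was not tested. Csf1r, the receptor of CSF1, was found in 1.66% of cells.

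Among the 21 signalling genes, Socs3, a feedback inhibitor of gp130, was found in 97.03% of cells, Jak1 in 91.8% and Stat3 in 90.5%. Socs3 is also among the 27 immediate early genes regressed out in the clustering. Whether its reads arose during dissociation of the tissue was not tested. Stat2 was found in 61.3%, Stat6, which acts below IL-4R alpha, in 57.2%, and Stat4 in 0 cells, which allows up to 0.356%. Of 20 signalling genes compared between cells with and without Il33, 1 (Stat2, -0.57) passed the fold, against 3.63% of all genes lower. The Stat2 ratio was -0.48 weighted by depth and -0.27 after thinning, within the fold in both. Of 19 interferon-stimulated genes, Bst2 (95.8%), Irf9 (63.7%) and Isg15 (61.9%) were found most often. Of the 17 compared, Ifit2 was higher with Il33 (0.56) and Oasl2 (-0.59) and Stat2 were lower, with a list median of -0.15, against 2.62% and 3.63% of all genes. The Ifit2 ratio was 0.63 weighted by depth, 0.05 after thinning and 0.21 without the cell with Il33 that held most of it. The Oasl2 ratio was -0.65 and -0.71 in the first 2 of these settings. At 20000 reads, cells with reads of both Ifnar1 and Ifnar2 held 5.51 ± 3.33 of the 19 interferon genes (SD over cells) and the other cells 5.02 ± 3.20, a gap well within the spread between cells.

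The partner chains were found in very different shares of cells. Of the gp130 partners, Osmr was found in 79.5% of cells, Il11ra1 in 67.5%, Lifr in 59.7% and Il6ra in 36.7%. Il2rg was found in 68.4%, Il13ra1 in 48.5%, Ifngr2 in 29.9% and Il1rap, which serves both IL-1 and IL-33 receptors, in 10.7%. Il20ra and Il22ra1, the partners of Il20rb, had no row under these symbols in the matrix, and whether the authors' gene filter removed them was not tested. Of 16 receptor partners compared, 1 (Il17rc, -0.59) passed the fold between cells with and without Il33, and none was higher. Over all genes, 3.63% were lower and 2.62% higher. Il1rap was found in 16.03% of cells with and 9.70% of cells without Il33 (ratio 0.38).

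Because a receptor needs both chains, the share of cells with both was counted. Ifnar1 and Ifnar2 were found together in 38.005% of cells (34.7 to 41.4%), and Ifnar1 was the chain missing in most others, since 44.4% of cells had Ifnar2 alone and 6.06% Ifnar1 alone. Ifnar2 was found in 86.3% of cells with and 79.4% of cells without Ifnar1, and in 73.7% and 71.4% after thinning. Ifngr1 and Ifngr2 were found together in 18.4% (15.8 to 21.2%), and 41.6% of cells had Ifngr1 alone. Il4ra was found with Il2rg in 33.5% of cells and with Il13ra1, the partner that binds IL-13, in 26.01%.

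Some pairs varied over the clusters. The pair of Il6st and Lifr, the receptor of leukaemia inhibitory factor, was found in 77.04% (72.1 to 81.5%) of Igfbp5-high, 58.4% (51.1 to 65.5%) of the remaining, 48.8% (33.3 to 64.5%) of Cldn11-high, 45.7% (39.2 to 52.3%) of Stab2-high and 17.4% (7.82 to 31.4%) of Fndc1-high cells. The interval of the Igfbp5-high cells lay above all others, and that of the Fndc1-high cells below all others. Il4ra and Il13ra1 were both found in 37.2% (31.9 to 42.6%) of Igfbp5-high, 21.98% (16.8 to 27.9%) of Stab2-high, 18.4% (13.2 to 24.7%) of the remaining, 13.95% of Cldn11-high and 8.70% of Fndc1-high cells. The interval of the Igfbp5-high cells lay above those of Stab2-high and the remaining cells. Il6st was found with Osmr in 78.98% of cells, with Il11ra1 in 67.1%, with Lifr in 59.5% and with Il6ra in 36.6%, which are close to the partners' own shares. Il1r1 and Il1rap were found together in 8 cells (0.95%, 0.411 to 1.86%). At 20000 reads the shares with both chains were 21.997% for Ifnar1 with Ifnar2, 8.98% for Ifngr1 with Ifngr2, 11.5% for Il4ra with Il13ra1 and 64.2% for Il6st with Osmr. A missing chain is a chain without reads at the depth of that cell.

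**Figure D5:**
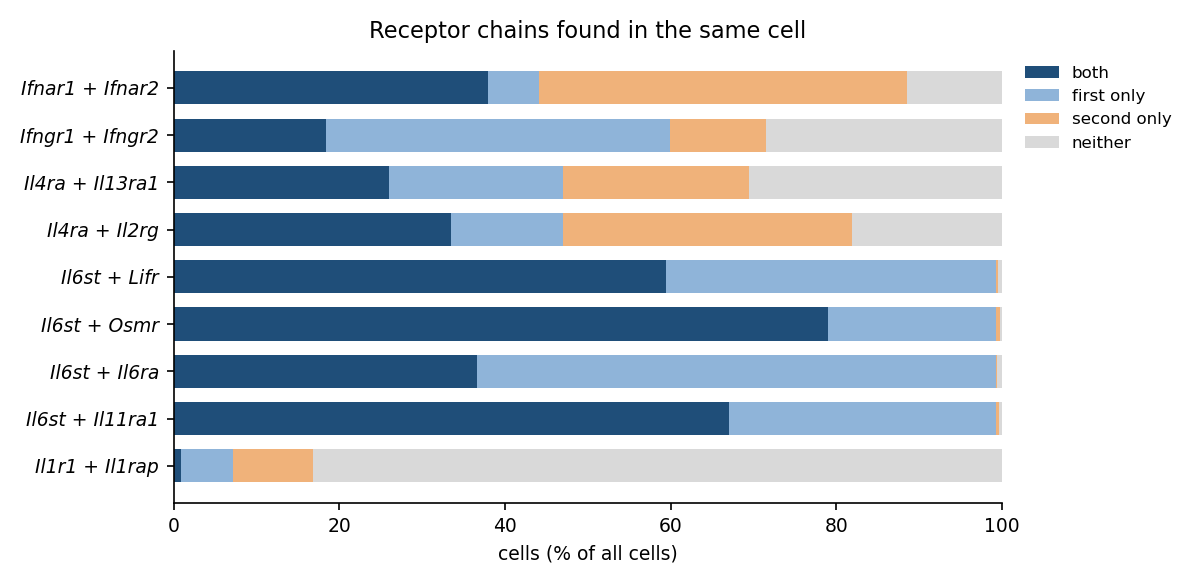
Share of all cells (%) with reads of both receptor chains, of the first or the second alone, and of neither, for 9 pairs. Il6st with Osmr is found in 78.98% of cells, Ifnar2 without Ifnar1 in 44.4%, and Il1r1 with Il1rap in 0.95%.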

How the data were processed

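Cells of adult nasopharyngeal mucosa were analysed from 1 deposited matrix of 842 cells, while the labels list 1536 wells. Il33 was found in 131 cells and not in 711, and the clusters held 331 (Igfbp5-high), 232 (Stab2-high), 190 (remaining), 46 (Fndc1-high) and 43 (Cldn11-high) cells. After thinning to 20000 reads 791 cells were left. Per the labels and the study's methods, the authors aligned reads with STAR to mm10 and counted them with featureCounts. They removed cells with fewer than 2000 genes or over 10% mitochondrial reads, and genes expressed in fewer than 3 cells. Even so, 1341 rows of the matrix had reads in none of the 842 cells. The deposited values are natural logs of 1 plus reads per 10000 (Seurat 4.1.0). The methods name log2, but values back-transformed with the natural exponent sum to 10000 in all cells, and whole reads were recovered for 100% of values within 0.01 reads. Reads were recovered because depth sets whether a gene is found: Smart-seq3 read counts are not molecules. Strand use in counting is not given in the sources used here.

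The members, gene lists and comparisons were chosen with earlier results of these data known. A gene counted as found with at least 1 read. Ratios used genes with reads in at least 5% of cells and a pseudocount of 0.1, and 0.5 on the log2 scale was the fold named. Correlations used genes in at least 10% of cells. Cells were clustered with Seurat 5.3.0 (2000 variable genes, 15 components, reads, mitochondrial share, 27 immediate early and 97 ribosomal genes regressed), with 89 cytokine, receptor, signalling and interferon genes held out, at resolution 0.45, the lowest in steps of 0.05 that gave 5 clusters. Named were all members, the subtype, identity and other-cell-type genes, the 3 most often found genes of each pathway list with the partners of the members, the 10 largest ratios in each direction, and the 5 genes most correlated with each secreted member. The ratio and the thinning were tested on counts simulated from fixed expression profiles, with the group placed at random over depth. That simulation does not cover Il33 cells that are deeper, or single cells that carry a ratio. Alternatives changed the depth, filters, pseudocount, clustering and definition of Il33 cells. Doublets were not called. Exon lengths came from GENCODE M21 and start windows from RefSeq (GRCm38.p6). Python 3.11.15 and R 4.3.3 were used. Some genes that these rules name are not reported here.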

Additional observations from a re-analysis of the deposited data

How the results depend on the processing

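No paired analysis was possible because the cells form 1 group and no test was made. The share of cells with Il33 (15.6%) was 5.82% for values above 1 and 10.999% at 20000 reads per cell, and stayed within its interval under 3 other settings. For values above 1 the shares in Igfbp5-high, Stab2-high, Fndc1-high, Cldn11-high and the remaining cells were 6.95, 5.17, 6.52, 0 and 5.79%. At 20000 reads they were 13.1% in Igfbp5-high and 0 in Cldn11-high cells. With the default resolution and with 20 components, Igfbp5 was highest in a small cluster of 22 or 24 cells, where the share was 27.3 or 25%. Without regression 1 cluster was highest for both Igfbp5 and Cldn11.

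The number of genes past the fold depended on the scale. Against 2.62% of genes higher and 3.63% lower, there were 0.0864 and 0.0432% (10 and 5 genes) with a pseudocount of 1, 8.03 and 12.3% with 0.01, 0.0346 and 0% (4 genes and none) for differences of mean natural log values, 5.21 and 8.24% at 20000 reads, and 8.30 and 11.4% for the 49 cells with Il33 above 1. Without the filter on low genes 2.05% were lower. Igfbp5, C3 and Adamtsl1 were among the 4 genes on the log scale.

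Among ratios past the fold, the direction turned for Igfbp3 with Il33 above 1 (-1.25), and for others within clusters, an alternative chosen, like the runs of columns below and the leaving out of single cells, after seeing the data. These were Igfbp3 (-0.27) and Gnpda2 (-0.17) within Igfbp5-high cells, Htr2b (-0.26), Postn (-0.31), Ifitm1 (-0.53) and Gdf15 (1.59) within Stab2-high cells, and Gata2 (-0.32), Steap4 (-0.58), Iigp1 (-0.41) and Igfbp3 (-0.47) within the remaining cells. The cause was not tested. Over the genes and alternatives counted here, 47 ratios turned direction. They were these 11, and 36 of genes within the fold, among them the members Il7, Il4ra, Ifnar1 and Ifnar2. Neo1 passed the fold as it turned, with -1.22 at 20000 reads and -1.30 with Il33 above 1, and the others stayed between -0.21 and 0.32. Within clusters, these counts took in the Igfbp5-high, Stab2-high and remaining cells only. Some genes past the fold were not counted, such as Dcn (-0.54), which turned within Igfbp5-high cells (0.25) and without its highest cell (0.02). In the Fndc1-high and Cldn11-high cells, where 10 and 3 cells had Il33, further ratios past the fold turned. These included Igfbp5 (-0.73 and -0.64) and C3 (-0.81 and -2.97), and Lyve1 in the Cldn11-high cells (-1.80).

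In 15 runs of 96 consecutive column numbers, whose relation to plates the labels do not give, Il33 was found in 9.09 to 23.8% of cells, at median depths of 55226.5 to 928143 reads. Leaving out each run gave 14.9 to 16.1%. Igfbp5 was higher with Il33 in 12 of the 15 runs and C3 in 13. Depth limits all shares, since a gene without reads in a shallow cell may be expressed there.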

Other observations

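Cells can be told apart by their sex-linked reads, since mice of both sexes were pooled. Il33 was found in 11.3% (6.95 to 17.1%) of cells with Xist reads and no Y gene reads and in 18.3% (14.97 to 22.1%) of the 480 cells with Y gene reads and no Xist. The latter were deeper, with a median of 441014 against 290954 reads, and at 20000 reads per cell the shares were 7.59% and 12.5%. The number of mice behind these cells is not known.

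Ifnar1 was most correlated with Il10rb, its neighbour between Ifnar2 and Ifnar1 on chromosome 16 (r = 0.17 over all cells, chosen after the values were seen). At 20000 reads per cell, Ifnar1 was found in 37.99% of cells with Il10rb and in 27.5% of cells without it. Il10rb encodes a chain shared by the receptors of IL-10, IL-22 and the lambda interferons.

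Il6st was more strongly correlated with other genes than any other member, among them Clca3a1 (r = 0.32) and Tm4sf1 (0.30).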
